A study of Mus musculus with 15 samples.

Results

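Of the 54456 genes in the deposited count table, 8 were followed here because they receive, carry or present fibroblast growth factors (FGFs). They were taken by name: the receptors Fgfr1, Fgfr2, Fgfr3 and Fgfr4, the kinase-lacking receptor Fgfrl1, the FGF carrier Fgfbp1, and the syndecans Sdc1 and Sdc4. The RNA came from organoids of wild-type (WT) mouse mammary gland, labelled as mammary epithelial cells, in a migration assay beside beads. The beads carried FGF10, or bovine serum albumin (BSA) as the control protein. The organoids were cultured in DMEM/F12 with L-Ala-Gln, ITS and P/S. There were 5 groups of 3 libraries: FGF10 at 36 h, FGF10 at 72 h, BSA at 36 h, BSA at 72 h, and organoids collected at 0 h. The organoids of the 5 groups share the WT genotype and the medium, and the 0 h label names no bead protein. The titles of the FGF10 72 h libraries read FGF0, and the treatment label, which reads FGF10, was followed. No age, sex, strain or number of mice is given in the sources used here. Nothing says that the 3 libraries of a group came from separate cultures or mice, so the p-values measure only the spread between these libraries.

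FGF10 is made by the stroma of the mammary gland and acts on the epithelium. It binds above all the IIIb splice form of FGFR2, and FGFR2 signalling is needed for mammary buds to form and for ducts to branch. An FGF binds its receptor as a complex with heparan sulfate, a sulfated sugar chain carried by cell surface proteins such as the syndecans. FGFBP1 is a secreted protein, not itself a proteoglycan, that binds FGFs held in the matrix and brings them to their receptors. FGFRL1 binds FGFs and heparin but has no kinase domain.

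The start regions of 4 of these genes are printed because the genes behaved differently in the assay: Sdc1 was higher beside FGF10, its relative Sdc4 was not called there, Fgfbp1 was higher in culture than at 0 h, and Fgfr2 was lower. Each runs 5′ to 3′ on the gene's own strand, from 250 bases before to 50 bases after a transcript start, and was taken from RefSeq (GRCm38.p6). Capitals mark matches to 5 motifs searched by their letters on both strands. The GC box was searched as GGGCGG. The core bound by ETS factors was searched as CCGGAA. The TATA box was searched as TATAAA. The E-box was searched as CACGTG. The site of AP-1 was searched as TGANTCA, where N is any base.
Sdc1, chr12:8771146-8771445, + strand: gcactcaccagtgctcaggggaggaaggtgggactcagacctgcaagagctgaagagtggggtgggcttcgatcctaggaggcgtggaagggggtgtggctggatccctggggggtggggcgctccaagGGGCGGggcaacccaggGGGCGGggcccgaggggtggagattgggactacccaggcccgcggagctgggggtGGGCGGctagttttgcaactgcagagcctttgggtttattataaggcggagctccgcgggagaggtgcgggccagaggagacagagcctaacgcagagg
Sdc4, chr2:164443139-164443438, - strand: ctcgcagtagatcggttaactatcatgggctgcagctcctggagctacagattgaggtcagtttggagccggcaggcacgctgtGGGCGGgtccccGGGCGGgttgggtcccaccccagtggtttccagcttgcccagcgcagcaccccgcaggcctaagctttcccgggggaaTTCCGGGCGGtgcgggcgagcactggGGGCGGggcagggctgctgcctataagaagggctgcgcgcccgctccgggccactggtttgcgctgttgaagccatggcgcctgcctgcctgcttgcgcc
Fgfbp1, chr5:43981750-43982049, - strand: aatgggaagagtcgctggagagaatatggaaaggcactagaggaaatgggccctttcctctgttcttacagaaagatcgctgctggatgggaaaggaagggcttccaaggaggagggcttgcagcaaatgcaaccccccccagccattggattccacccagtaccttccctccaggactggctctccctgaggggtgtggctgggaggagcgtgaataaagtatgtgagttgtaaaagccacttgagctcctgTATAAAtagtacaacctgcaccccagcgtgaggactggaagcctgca
Fgfr2, chr7:130266759-130267058, - strand: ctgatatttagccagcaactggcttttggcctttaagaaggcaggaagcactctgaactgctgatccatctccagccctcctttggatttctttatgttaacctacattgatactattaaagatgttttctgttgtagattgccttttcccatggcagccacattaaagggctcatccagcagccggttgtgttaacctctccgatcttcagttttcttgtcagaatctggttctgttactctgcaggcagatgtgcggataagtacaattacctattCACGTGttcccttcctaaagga
The Sdc1 window held 3 GC boxes and the Sdc4 window 4, with 1 ETS core in Sdc4 that overlaps a GC box. The Fgfbp1 window held 1 TATA box, starting 3 bases past the annotated start, and the Fgfr2 window 1 E-box, 28 bases past the start. The AP-1 letters were in none of the 8 windows found for 7 of the 8 genes, Fgfr1 having no entry. Of 32851 mouse windows of this length, 35.7% held a GC box, 14.9% an ETS core, 13.6% a TATA box, 7.15% an E-box and 7.81% an AP-1 site. A match is a description of the letters only.

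Libraries held 11965322 to 24261233 counts, and 18140 genes passed the filter on low counts, among them 7 of the 8 members, all but Fgfr4. Levels are given as CPM, counts scaled to one common library size with TMM factors, and differences are log2 differences with a standard error (SE) from edgeR's quasi-likelihood fit of all 5 groups. Calls needed a p-value below 0.05 after Benjamini-Hochberg adjustment over all tested genes. The luminal markers Krt8, Krt18 and Epcam and the basal markers Krt5, Krt14 and Acta2 were in every group, with summed levels of 12661 to 38424 CPM over the 7 luminal markers and 8379 to 22549 CPM over the 7 basal ones. FGF10 36 h replicate 4 stood apart in its mitochondrial share, 1.11% of counts against 2.02% to 4.55% in the other 14 libraries. The BSA 72 h libraries named 2_1 and 2_2 were closer to each other than to replicate 3, with a mean chi-square of 4.32 per gene against 9.58 and 11.7, and were kept as separate libraries. In the table's GRCm39 annotation the genes lie at chr8:26003670-26065734 (Fgfr1, + strand), chr5:33879018-33894412 (Fgfr3, +), chr13:55300453-55316572 (Fgfr4, +), chr5:108840248-108854790 (Fgfrl1, +), chr5:44136200-44139121 (Fgfbp1, -), chr12:8821323-8843715 (Sdc1, +) and chr2:164266167-164285807 (Sdc4, -), and counts cover their exons. Of the exon bases of Fgfr1, 1.66% are shared with an antisense gene. In bulk RNA, fewer cells of a type and less RNA per cell cannot be told apart.

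**Figure D1:**
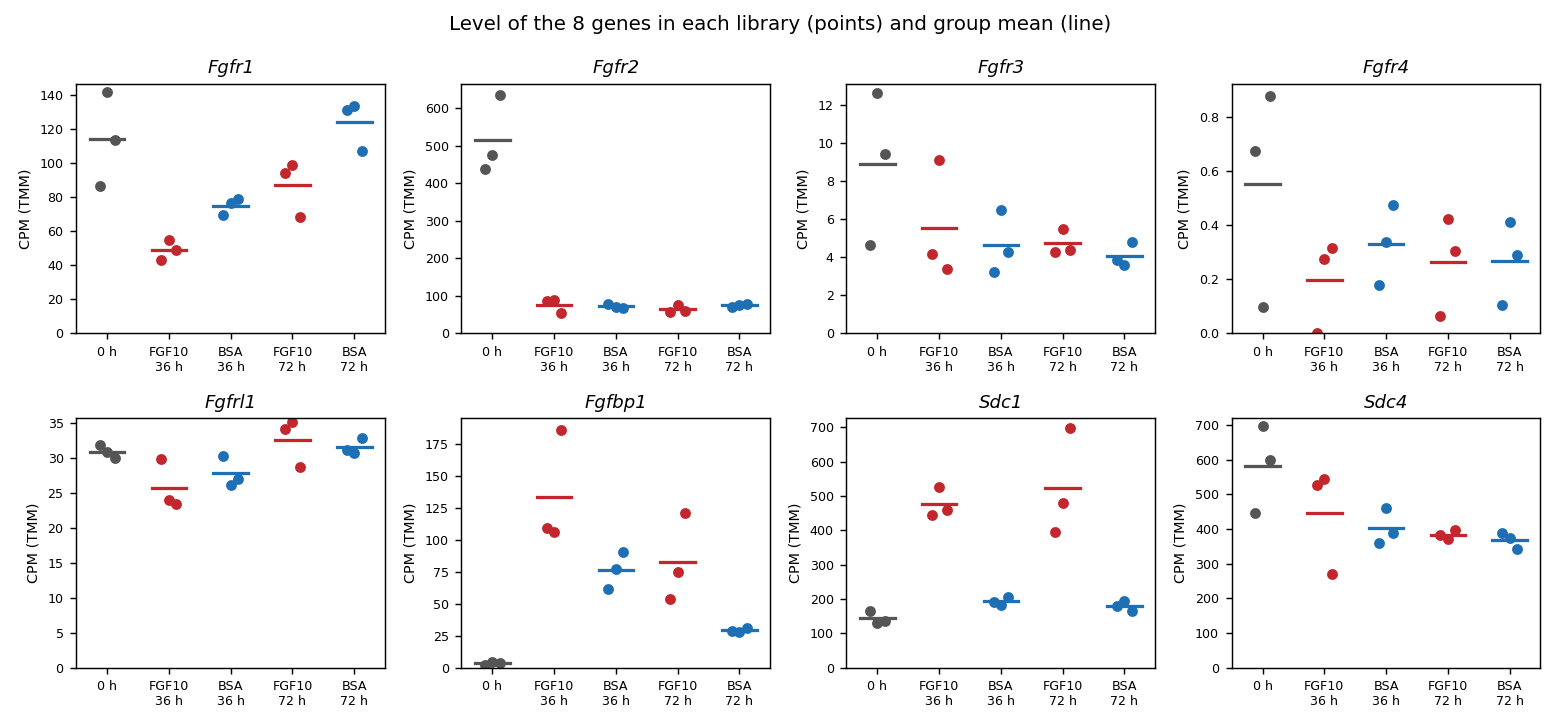
Level of each of the 8 genes in CPM (y axis, from 0) in every library (points), with the mean of 3 libraries as a line, for 0 h, FGF10 and BSA at 36 h, and FGF10 and BSA at 72 h. Fgfr2 lies at 437 to 637 CPM at 0 h and at 52.4 to 89.5 CPM in the cultured libraries, and Sdc1 lies above its BSA libraries in all 6 FGF10 libraries.

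Fgfr2, the receptor of FGF10, fell in all 4 cultured groups, beside either bead. It had 86.1, 89.5 and 52.4 CPM in the FGF10 36 h libraries and 56.3, 75.1 and 57.6 CPM in the FGF10 72 h libraries. With BSA it had 77.5, 68.8 and 67.7 CPM at 36 h and 70.2, 75.2 and 77.7 CPM at 72 h, against 437, 475 and 637 CPM at 0 h. The 12 cultured libraries lay within a narrow band, far under the lowest 0 h library. Against 0 h, Fgfr2 was 6.79-fold lower with FGF10 at 36 h (log2 difference -2.76 ± 0.21 SE, adjusted p = 5.2e-07) and 8.20-fold lower with FGF10 at 72 h (-3.04 ± 0.21, adjusted p = 1.9e-07). It was 7.24-fold lower with BSA at 36 h (-2.86 ± 0.21, adjusted p = 5.5e-07) and 6.94-fold lower with BSA at 72 h (-2.80 ± 0.21, adjusted p = 5.8e-07). These 4 comparisons share the 0 h libraries. In them 39.8%, 29.9%, 27.1% and 25.2% of all tested genes were called, so a call against 0 h is common, and of the 7 tested members 4, 3, 3 and 3 were called. The libraries of the groups did not overlap for 44.9%, 47.9%, 40.7% and 45.4% of tested genes, and for 5, 4, 4 and 3 of the 7 members.

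Between beads no difference in Fgfr2 was called. At 36 h it averaged 76.0 ± 20.5 CPM with FGF10 and 71.3 ± 5.35 CPM with BSA (SD, n = 3 each), a log2 difference of 0.09 with a 95% interval of -0.33 to 0.51. At 72 h it averaged 63.0 ± 10.5 CPM with FGF10 and 74.4 ± 3.82 CPM with BSA, a difference of -0.24 with an interval of -0.66 to 0.18. Neither interval shows that the beads act alike. The libraries of both groups overlapped at each time. Set against Epcam, an epithelial adhesion gene, the Fgfr2 ratios overlapped at 36 h but not at 72 h, at 0.0279 to 0.0411 with FGF10 and 0.0442 to 0.0525 with BSA. Epcam itself did not overlap at 72 h, at 1825 to 2065 CPM with FGF10 and 1479 to 1606 CPM with BSA. The CPM of 43.7% of all tested genes did not overlap at 72 h, and the ratio was not tested.

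Epithelial markers also moved against 0 h. The 7 luminal markers summed to 18270 to 24533 CPM with FGF10 at 36 h, 17513 to 19706 with FGF10 at 72 h, 14199 to 21146 with BSA at 36 h and 12661 to 13716 with BSA at 72 h, against 27923 to 38424 CPM at 0 h, and 3 to 5 of the 7 fell. Set against Epcam, whose own level was 1557 to 2301 CPM in the cultured group means and 3464 CPM at 0 h, Fgfr2 was still lower. The ratio of Fgfr2 to Epcam was 0.0329 and 0.0333 with FGF10 at 36 h and 72 h and 0.0355 and 0.0479 with BSA, against 0.149 at 0 h. Of the other cell types, the 8 leukocyte markers summed to 24.6 to 153 CPM across the 12 cultured libraries, against 1319 to 1774 CPM at 0 h. The 8 fibroblast markers summed to 12.9 to 91.9 CPM in culture, against 96.3 to 636 CPM at 0 h. The 8 endothelial markers summed to 2.87 to 127 CPM in culture, against 45.3 to 243 CPM at 0 h, and the 8 adipocyte markers to 8.89 to 417 CPM, against 62.7 to 548 CPM. With FGF10 at 36 h, 5 of 6 tested leukocyte, 8 of 8 fibroblast and 8 of 8 endothelial markers were lower than at 0 h, and with BSA at 72 h 4 of 6, 3 of 8 and 1 of 8 were. Of the 8 adipocyte markers, 2 were lower and 0 higher with FGF10 at 36 h, while with BSA at 72 h 4 were higher and 0 lower, and 1 leukocyte marker was higher there too. No leukocyte or fibroblast marker was at 0 in all 0 h libraries, and Cd3e was at 0 counts with FGF10 at 72 h and with BSA at 36 h. The part of these cell types in the fall of Fgfr2 was not tested.

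The counts for Fgfr2 come from a wide annotated gene, GRCm39 chr7:129764181-132725079 on the minus strand. Of its 22 exon blocks, 20 lie within 103.8 kb (chr7:129764181-129867993) and hold 96.96% of the 10328 exon bases. The other 2, of 104 and 210 bases, lie beyond a gap of 2815.5 kb, and all 314 of their bases fall in exons of the same-strand gene Ctbp2. A fragment inside those blocks matches exons of both genes and was not counted, under the settings in the file header. The values for Fgfr2 thus come from the compact part of the gene. Gene counts do not separate the IIIb splice form, which binds FGF10, from the IIIc form.

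Fgfr1, the receptor that binds FGFs of mesenchyme such as FGF2 in its IIIc form, was lower than at 0 h in both 36 h groups. It lay higher at 72 h than at 36 h beside both beads, a rise that the main fit called with FGF10 only. It had 42.9, 54.7 and 49.0 CPM with FGF10 at 36 h, against 86.9, 142 and 114 CPM at 0 h, a 2.33-fold fall (log2 difference -1.22 ± 0.18 SE, adjusted p = 0.00015). With BSA at 36 h it had 69.7, 76.3 and 78.9 CPM, 1.52-fold below 0 h (-0.60 ± 0.18, adjusted p = 0.0219). Neither cultured group at 36 h overlapped with 0 h. At 72 h Fgfr1 had 94.4, 99.1 and 68.2 CPM with FGF10 and 131, 134 and 107 CPM with BSA, and neither group differed from 0 h by the test (adjusted p = 0.122 with FGF10 and 0.673 with BSA), though the FGF10 difference was called without 0 h replicate 1 (0.0277). From 36 h to 72 h Fgfr1 rose 1.78-fold with FGF10 (0.84 ± 0.18, adjusted p = 0.0286), a comparison in which 1.91% of tested genes were called and Fgfr1 was the 1 member called. With BSA the difference was 0.73 ± 0.18 (adjusted p = 0.0780), where edgeR called 0.469% of tested genes and 0 of the 7 members, 2 members had an unadjusted p under 0.05, and voom and DESeq2 called 2 each. Fgfr1 was 1 of the 2 with voom (adjusted p = 0.0059) and with DESeq2 (0.0130). Its libraries at 36 h and 72 h did not overlap beside either bead. The libraries did not overlap for 21.1% of tested genes with FGF10 and 30.7% with BSA. For Fgfr1 the change of the bead difference between times was 0.11 ± 0.26 and not called (adjusted p = 0.976).

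Both of the smaller Fgfr1 calls rest on few libraries. The fall with BSA at 36 h had an adjusted p of 0.118 without 0 h replicate 2, 0.0607 and 0.0514 when replicate 1 or 2 of BSA 36 h was left out, and 0.0550 with only the groups compared. The rise with FGF10 had 0.134 and 0.152 without FGF10 72 h replicate 2 or 3, 0.0873 and 0.0622 without FGF10 36 h replicate 1 or 4, and 0.0849 with only the groups compared.

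Fgfr1 lay lower beside FGF10 than beside BSA at both times, with no overlap between libraries, and did not pass the test. The log2 difference was -0.62 ± 0.18 at 36 h (95% interval -1.005 to -0.23, adjusted p = 0.0871) and -0.51 ± 0.18 at 72 h (-0.90 to -0.13, adjusted p = 0.104). Of all tested genes, 19.4% at 36 h and 43.7% at 72 h had libraries that did not overlap. The 36 h difference was called by limma voom (adjusted p = 0.0306), by DESeq2 (0.0474), with no filter on low counts (0.0417) and without 0 h replicate 1 (0.0414), and over the alternatives its adjusted p ran from 0.0306 to 0.236. The 72 h difference was called by voom (0.0126) and with only the groups compared (0.0224), in a range of 0.0126 to 0.403.

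Markers of other cell types moved in the same comparison at 72 h. The 8 adipocyte markers summed to 8.89 to 68.6 CPM with FGF10 at 72 h and 411 to 417 CPM with BSA, the 8 endothelial markers to 2.87 to 14.9 and 47.9 to 127 CPM, the 8 fibroblast markers to 12.9 to 34.6 and 40.6 to 91.9 CPM, and the 8 leukocyte markers to 24.6 to 37.7 and 122 to 153 CPM. Of the tested markers, 5 of 8 adipocyte, 2 of 8 endothelial, 0 of 8 fibroblast and 6 of 6 leukocyte genes were lower with FGF10, and edgeR gave 5 fibroblast genes an unadjusted p under 0.05. The 7 basal markers summed to 20264 to 22549 CPM with FGF10 at 72 h and 8878 to 10773 CPM with BSA, 3 being higher and 1 lower. At 36 h the adipocyte markers summed to 15.4 to 20.8 CPM with FGF10 and 29.1 to 75.9 with BSA, and the leukocyte markers to 38.6 to 96.3 and 83.0 to 130 CPM, with 1 gene of each lower. Lep, an adipocyte hormone, was at 0 counts with FGF10 at 36 h. The part of these cells in the Fgfr1 difference was not tested.

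For the other receptors no difference between beads was called. Fgfr3 had 4.18, 9.10 and 3.35 CPM with FGF10 and 3.21, 6.50 and 4.28 CPM with BSA at 36 h, and 4.30, 5.49 and 4.39 CPM with FGF10 and 3.85, 3.59 and 4.79 CPM with BSA at 72 h, against 4.65, 12.7 and 9.46 CPM at 0 h. The intervals of its bead difference were wide, -0.59 to 1.10 at 36 h and -0.65 to 1.07 at 72 h. Its differences from 0 h, -0.66 to -1.11 over the 4 cultured groups, were not called in the main fit (smallest adjusted p = 0.0525, with BSA at 72 h). That value was under 0.05 in 8 of 23 alternatives. Among them were a fit with the replicate number as a block (0.0037), DESeq2 (0.0258), voom (0.0064) and the fit without 0 h replicate 1 (0.0112). The differences with FGF10 at 36 h, FGF10 at 72 h and BSA at 36 h were called in 2, 3 and 3 of the 23. The block called those with FGF10 at 72 h (0.0097) and BSA at 36 h (0.0177). Of the exon bases of Fgfr3, 13.94% are shared with an antisense gene, G630022F23Rik, and the counting took no account of strand.

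Fgfr4, the fourth kinase receptor, had few counts. The FGF10 libraries held 0, 5 and 5 counts at 36 h and 1, 5 and 5 at 72 h. The BSA libraries held 3, 6 and 8 counts at 36 h and 2, 7 and 5 at 72 h, against 16, 1 and 16 counts at 0 h. It was too low to be tested, and the 0 h libraries spanned nearly the whole range.

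Fgfrl1, the receptor without a kinase, was called by edgeR in no comparison of all libraries. It had 29.8, 24.0 and 23.4 CPM with FGF10 and 30.3, 26.2 and 26.9 CPM with BSA at 36 h, 34.1, 35.1 and 28.6 CPM with FGF10 and 31.1, 30.7 and 32.8 CPM with BSA at 72 h, and 31.9, 30.8 and 30.0 CPM at 0 h. Its bead difference had a 95% interval of -0.37 to 0.15 at 36 h and -0.21 to 0.31 at 72 h. Its smallest adjusted p was 0.0997 with FGF10 at 36 h against 0 h, where the difference was -0.26 ± 0.12 and the libraries did not overlap, and was 0.0313 there without FGF10 36 h replicate 1.

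**Figure D2:**
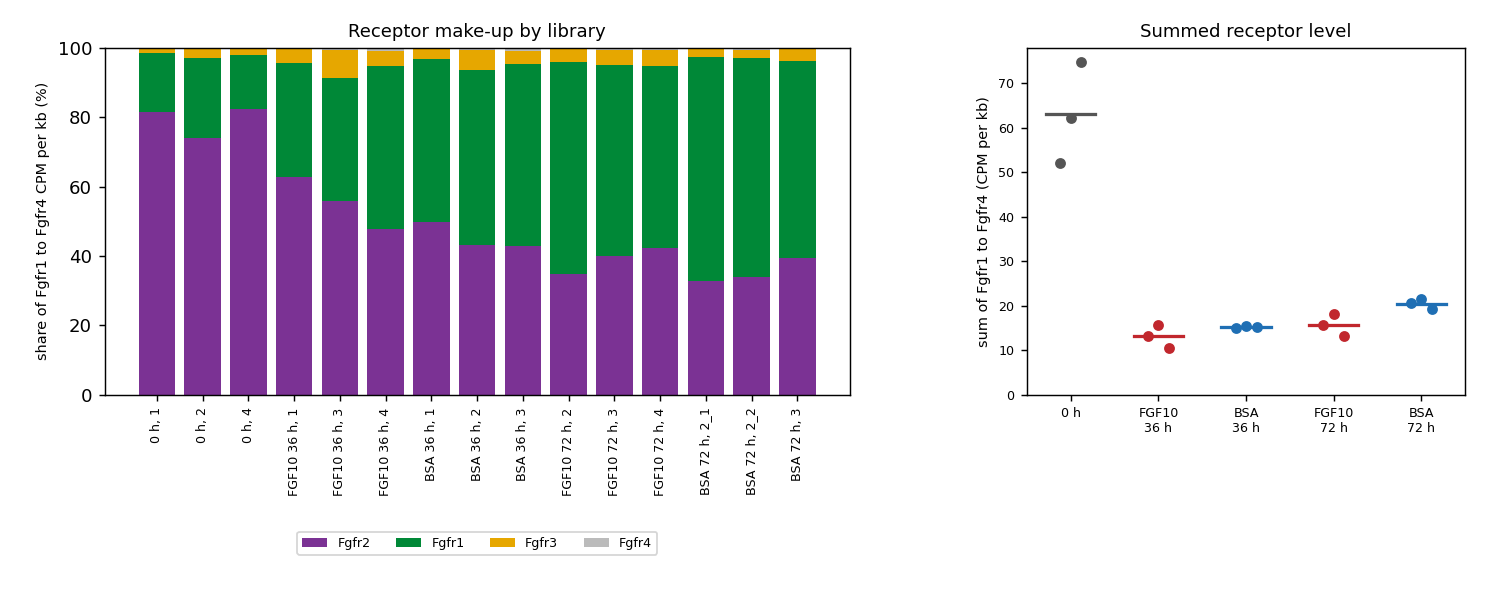
Left, share of each receptor in the summed CPM per kb of Fgfr1 to Fgfr4 in each library (%, stacked to 100), from 0 h to BSA 72 h. Right, the summed CPM per kb by group, with points for libraries and a line for the mean: 52.0 to 74.7 at 0 h and 10.6 to 21.5 in culture.

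Set per length of exon, the summed level of Fgfr1 to Fgfr4 was 13.1 ± 2.48 CPM per kb with FGF10 at 36 h, 15.7 ± 2.50 with FGF10 at 72 h, 15.2 ± 0.169 with BSA at 36 h and 20.4 ± 1.18 with BSA at 72 h, against 63.0 ± 11.4 CPM per kb at 0 h (SD, n = 3 each). The make-up changed with it. Fgfr2 gave 55.5 ± 7.49% of the sum with FGF10 and 45.3 ± 3.89% with BSA at 36 h, 39.1 ± 3.82% with FGF10 and 35.4 ± 3.44% with BSA at 72 h, and 79.3 ± 4.64% at 0 h. Fgfr1 gave 38.4%, 49.8%, 56.2% and 61.5% in the same cultured groups and 18.5% at 0 h, and Fgfr3 gave 1.96% at 0 h and 2.81% to 5.67% in culture. The Fgfr2 share in every cultured library, 32.9% to 62.9%, lay under that of every 0 h library, 74.0% to 82.5%. Between beads the Fgfr2 share overlapped at both times. The Fgfr1 share did not overlap at 36 h, by a narrow margin, at 32.7% to 46.84% with FGF10 and 46.87% to 52.3% with BSA, and overlapped at 72 h. The Fgfr3 share overlapped at 36 h and did not at 72 h, at 3.84% to 4.65% with FGF10 and 2.34% to 3.50% with BSA. The summed level did not overlap at 72 h either, at 13.2 to 18.2 CPM per kb with FGF10 and 19.1 to 21.5 with BSA. These shares and sums were not tested.

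The share depends on the length used. The longest exon block of Fgfr2, the one nearest the 5′ end within the compact part, is 3989 bases long, 38.6% of its length. Its counts cannot be taken out of a count per gene, so only the length was changed. With the same counts over the length without this block and the 2 far blocks, the level of Fgfr2 per kb is 1.71 times higher. That is an upper limit, reached only if the block held no counts. The Fgfr2 share is then 68.0%, 58.7%, 52.3% and 48.4% with FGF10 36 h, BSA 36 h, FGF10 72 h and BSA 72 h, and 86.7% at 0 h. Which of Fgfr1 and Fgfr2 led thus turned with the length for BSA 36 h and FGF10 72 h, and the Fgfr2 share lay below that at 0 h with either length. The Fgfr1 shares at 36 h, which did not overlap between beads with the full length, overlapped with the shorter one.

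Fgfbp1, the secreted FGF carrier, had the largest differences from 0 h among the 7 tested members. It had 109, 106 and 186 CPM with FGF10 at 36 h, 53.6, 74.5 and 121 CPM with FGF10 at 72 h, 61.5, 76.9 and 90.8 CPM with BSA at 36 h and 28.9, 28.2 and 31.5 CPM with BSA at 72 h, against 2.11, 4.84 and 3.52 CPM at 0 h. Every cultured library lay above every 0 h library. Against 0 h it was 39.6-fold higher with FGF10 at 36 h (log2 difference 5.31 ± 0.38 SE, adjusted p = 7.5e-07), 24.6-fold with FGF10 at 72 h (4.62 ± 0.37, adjusted p = 1.5e-06), 22.7-fold with BSA at 36 h (4.503 ± 0.37, adjusted p = 2.5e-06) and 8.76-fold with BSA at 72 h (3.13 ± 0.36, adjusted p = 3.6e-05).

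Beside FGF10 it was higher than beside BSA by the test at 72 h. There it averaged 82.9 ± 34.2 CPM with FGF10 and 29.5 ± 1.71 CPM with BSA (SD, n = 3 each), a 2.81-fold difference (1.49 ± 0.31, adjusted p = 0.0176), with 5.99% of all tested genes called and 2 of the 7 tested members. The median log2 difference of the 7 was 0.06, beside -0.0071 for all tested genes, and at 36 h it was 0.15, beside 0.0016. At 36 h it averaged 133 ± 45.3 CPM with FGF10 and 76.4 ± 14.6 CPM with BSA, with no overlap and no call (0.80 ± 0.31, 95% interval 0.14 to 1.47, adjusted p = 0.175). The change of the bead difference from 36 h to 72 h was 0.69 ± 0.43 and not called (adjusted p = 0.909). The lowest FGF10 library at 72 h, 53.6 CPM, lay above the highest BSA library, 31.5 CPM. Set against Epcam, Fgfbp1 stood at 0.0428 ± 0.0146 with FGF10 and 0.0190 ± 0.00198 with BSA at 72 h, again with no overlap. At 36 h this ratio overlapped, at 0.0389 to 0.107 with FGF10 and 0.0286 to 0.0474 with BSA. The part of the adipocyte, endothelial, leukocyte and basal markers given above in this difference was not tested.

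The call at 72 h was lost when 1 library was left out in 4 cases. The adjusted p was 0.0949 without FGF10 72 h replicate 4, the highest of the group, 0.0711, 0.0779 and 0.0661 when replicate 2_1, 2_2 or 3 of BSA 72 h was left out, and 0.0717 with 2_1 and 2_2 summed. The log2 difference stayed between 1.12 and 1.73 over all alternatives. Within BSA, Fgfbp1 stood 2.59-fold lower at 72 h than at 36 h with no overlap, and was not called (-1.37 ± 0.31, adjusted p = 0.0651), though voom (0.000903), DESeq2 (0.0034) and the fit with only the groups compared (0.0018) called it.

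**Figure D3:**
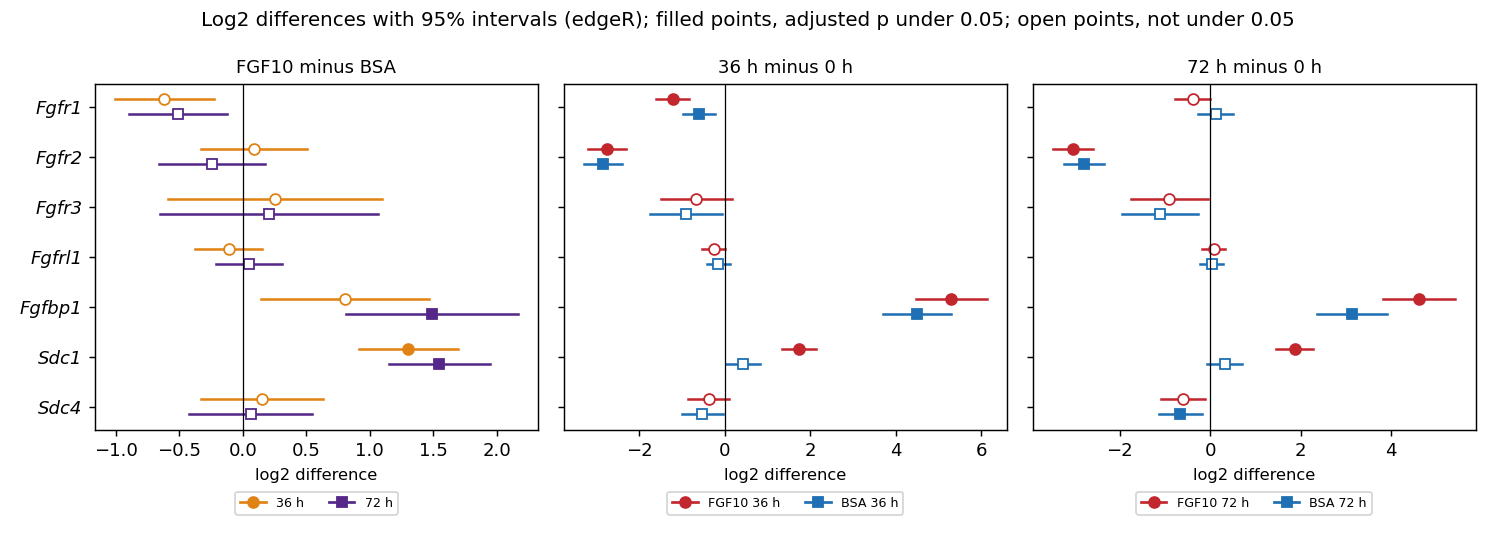
Log2 differences of the 7 tested genes (points) with 95% intervals (lines) for FGF10 minus BSA (left), 36 h minus 0 h (middle) and 72 h minus 0 h (right). Filled points have an adjusted p under 0.05, and Sdc1 is filled at both times in the left panel, at 1.30 and 1.55.

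Sdc1 was higher beside FGF10 than beside BSA at both times. Syndecan-1 is the main syndecan of epithelia, and its heparan sulfate chains bind FGFs. It had 444, 528 and 459 CPM with FGF10 at 36 h, against 192, 182 and 205 CPM with BSA. At 72 h it had 395, 479 and 698 CPM with FGF10, against 179, 193 and 164 CPM with BSA. At 0 h it had 166, 130 and 136 CPM. The lowest FGF10 library lay above every BSA and 0 h library. The bead difference was 2.47-fold at 36 h (log2 difference 1.30 ± 0.18 SE, adjusted p = 0.0027), where 2.34% of tested genes and 1 of the 7 tested members were called, and 2.93-fold at 72 h (1.55 ± 0.19, adjusted p = 0.00061). The change between times was 0.24 ± 0.26 (adjusted p = 0.954). For this change edgeR called 0 of the 7 members and 0 of all tested genes, voom and DESeq2 called 0 members as well, and 0 members and 998 of all genes had an unadjusted p under 0.05.

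Against 0 h, Sdc1 was 3.32-fold higher with FGF10 at 36 h (1.73 ± 0.19, adjusted p = 9.8e-06) and 3.64-fold higher with FGF10 at 72 h (1.87 ± 0.19, adjusted p = 4.8e-06). With BSA edgeR did not call it, at 0.43 ± 0.18 at 36 h (adjusted p = 0.0968) and 0.32 ± 0.18 at 72 h (adjusted p = 0.231). At 36 h the BSA libraries did not overlap with 0 h, and Sdc1 was called by voom (adjusted p = 0.0244) and without FGF10 72 h replicate 4 (0.0410). The 4 FGF10 calls were kept in all 23 alternatives, with adjusted p from 2.1e-09 to 0.0387 for the bead difference at 36 h and from 5.0e-13 to 0.0083 at 72 h. The ratio of Sdc1 to Epcam was 0.215 ± 0.0534 with FGF10 and 0.0966 ± 0.00955 with BSA at 36 h, and 0.272 ± 0.0617 with FGF10 and 0.115 ± 0.00492 with BSA at 72 h (SD, n = 3 each), with no overlap. The basal marker sums were higher with FGF10 at 72 h, as given above, and lay at 11815 to 14711 CPM with FGF10 and 8379 to 9208 CPM with BSA at 36 h, where 0 of the 7 basal markers were called higher by edgeR, 1 was called lower, and 5 had an unadjusted p under 0.05. Their part in the Sdc1 difference was not tested.

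Sdc4, the syndecan of focal adhesions, was not called between beads. It had 527, 546 and 270 CPM with FGF10 and 361, 460 and 389 CPM with BSA at 36 h, 384, 372 and 397 CPM with FGF10 and 388, 374 and 343 CPM with BSA at 72 h, and 445, 698 and 600 CPM at 0 h. The lowest value was that of FGF10 36 h replicate 4, the library with the low mitochondrial share. The bead difference was 0.15 with a 95% interval of -0.33 to 0.63 at 36 h and 0.06 with an interval of -0.42 to 0.54 at 72 h, and both intervals lie below those of Sdc1, 0.91 to 1.698 and 1.15 to 1.94. The difference between the 2 genes was not tested. Against 0 h edgeR called Sdc4 at BSA 72 h, 1.58-fold lower (-0.66 ± 0.23, adjusted p = 0.0452), and not at FGF10 72 h (-0.60 ± 0.23, adjusted p = 0.0599) or BSA 36 h (-0.53 ± 0.23, adjusted p = 0.0988). At FGF10 36 h Sdc4 was not called by edgeR (-0.38 ± 0.23, adjusted p = 0.199) or in any of the 23 alternatives. Of 23 alternatives, 6 called it at FGF10 72 h, among them voom (adjusted p = 0.0010) and DESeq2 (0.0313), and 3 called it at BSA 36 h, among them voom (0.0040). The call at BSA 72 h was lost in 10 of 23 alternatives, with an adjusted p of up to 0.164 without 0 h replicate 2. Per kb, Sdc1 stood at 0.782 and 0.908 of Sdc4 with FGF10 at 36 h and 72 h and at 0.325 with BSA at both times, against 0.175 at 0 h.

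**Figure D4:**
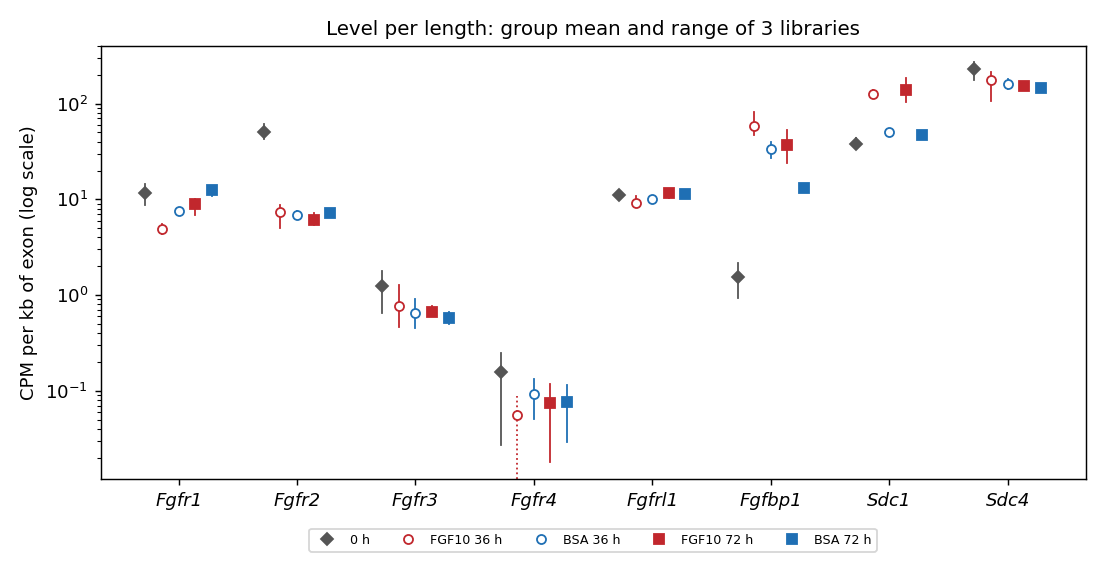
Level per length of the 8 genes (CPM per kb of exon, log scale) in each group, as the mean (symbol) and range (line) of 3 libraries; the dotted line runs to a library at 0. Sdc4 leads in every group, and Fgfr2 lies above Fgfbp1 at 0 h (49.99 and 1.54 CPM per kb) and below it in the cultured groups.

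Levels of different genes were compared per kb of exon. At 0 h Sdc4 led with 228 CPM per kb, then Fgfr2 (49.99), Sdc1 (37.7), Fgfr1 (11.6), Fgfrl1 (11.1), Fgfbp1 (1.54), Fgfr3 (1.25) and Fgfr4 (0.156). The ranges of Fgfr2 and Sdc1, of Fgfr1 and Fgfrl1, and of Fgfbp1 and Fgfr3 overlapped. With FGF10 at 36 h the order was Sdc4 (176), Sdc1 (125), Fgfbp1 (59.0), Fgfrl1 (9.25), Fgfr2 (7.36), Fgfr1 (4.95), Fgfr3 (0.775) and Fgfr4 (0.0556), and Sdc4 and Sdc1 overlapped, as did Fgfr2 with Fgfrl1 and with Fgfr1. At 72 h with FGF10 Sdc4 (151) and Sdc1 (137) again overlapped, before Fgfbp1 (36.6), Fgfrl1 (11.7), Fgfr1 (8.83) and Fgfr2 (6.10), the last 2 overlapping. With BSA Sdc4 (158 at 36 h and 145 at 72 h) and Sdc1 (50.7 and 47.0) did not overlap. Fgfbp1 (33.7 at 36 h) lay at 13.05 at 72 h, where it overlapped with Fgfr1 (12.6). With the shorter Fgfr2 length, Fgfr2 moved up in every cultured group. It passed Fgfrl1 with FGF10 at 36 h and BSA at 72 h, Fgfr1 with FGF10 at 72 h, and both with BSA at 36 h. The other genes kept their order.

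Over the 15 libraries, Pearson's r of log2 CPM was -0.91 between Fgfr2 and Fgfbp1, 0.72 between Fgfbp1 and Sdc1, and 0.84 between Fgfr3 and Sdc4. These are descriptions, since the libraries share 5 groups. For Fgfr2 and Fgfbp1 the 0 h group sets the range. By the same measure, among 11239 genes, Fgfr2 was most like Sh3bp4 (r = 0.985), Fbxw11 (0.982) and Mtmr7 (0.979), which averaged 51.2, 202 and 250 CPM at 0 h and at most 20.7, 61.6 and 24.8 CPM in a cultured group. The genes most like Sdc1 included Aacs (0.967), an acetoacetate-activating enzyme, and Col18a1 (0.960). Aacs averaged 101 CPM with FGF10 and 49.1 CPM with BSA at 36 h, and 116 CPM with FGF10 and 48.7 CPM with BSA at 72 h. The genes most like Fgfbp1 included Btbd19 (0.975) and Shf (0.964), and Fgfr1 was most like Ydjc (0.955), the oxytocin receptor gene Oxtr (0.942) and Masp1 (0.942). Oxtr, 1 of the 7 basal markers, averaged 95.9 CPM with FGF10 and 131 CPM with BSA at 72 h. The basal list did not move as 1 there, with 3 markers called higher and 1 lower with FGF10. For Fgfr3 they were G3bp2 (0.938), Adam10 (0.921) and Sec63 (0.892), for Fgfrl1 Pros1 (0.906), Casp12 (0.884) and Mmp11 (0.871), and for Sdc4 Rab18 (0.928), Rab5a (0.920) and Usp25 (0.907).

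Of 21 genes for FGF ligands and their co-receptors, 5 had counts enough to be tested. Fgf10 itself had 2 counts, both in 1 library of 0 h, and 0 counts in the 12 cultured libraries, which allows up to 3 counts in a library, counting error alone. None of the 5 was called between beads by edgeR at either time, where 1 and 0 had an unadjusted p under 0.05, nor by DESeq2, and voom called 0 at 36 h and 1 at 72 h. Fgf1, which binds all FGF receptors, averaged 10.8 ± 2.62 CPM with FGF10 at 36 h, 8.08 ± 0.904 with FGF10 at 72 h, 7.75 ± 0.387 with BSA at 36 h and 7.26 ± 0.513 with BSA at 72 h, against 36.8 ± 2.40 CPM at 0 h (SD, n = 3 each). It fell in all 4 comparisons with 0 h, by 1.76, 2.19, 2.25 and 2.34 on the log2 scale (largest adjusted p = 2.9e-06). Fgf21 had 0 counts at 0 h and 9 to 52 counts in each cultured group and was called higher in all 4 by edgeR. It passed the filter on low counts only through the cultured libraries, so its direction against 0 h was fixed in advance. Fgf2 was called higher with BSA at 72 h (0.97 ± 0.33, adjusted p = 0.0432). In both 36 h groups voom called 1 of the 5 genes against 0 h, Fgf1, so the Fgf21 calls were lost there. Against 0 h edgeR called 2 of the 5 in both FGF10 groups and BSA 36 h, and 3 in BSA 72 h. Of all tested genes, 39.8%, 29.9%, 27.1% and 25.2% were called in FGF10 36 h, FGF10 72 h, BSA 36 h and BSA 72 h. With BSA at 72 h edgeR called 3 of the 5 and voom 2, with Fgf1 called by both. At least 1 of the Fgf21 and Fgf2 calls was thus lost there with voom. Both Fgf21 and Fgf2 were picked for mention after their values were seen.

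Among 13 tested genes of other heparan sulfate proteoglycans, 1 was higher and 0 lower with FGF10 at 36 h, and 1 was higher and 1 lower at 72 h. The median log2 difference of the list was -0.0019 at 36 h and -0.019 at 72 h, beside 0.0016 and -0.0071 for all tested genes. The gene higher at both times was Col18a1, which encodes the basement membrane proteoglycan collagen XVIII. It averaged 95.1 ± 9.72 CPM with FGF10 and 28.7 ± 3.16 CPM with BSA at 36 h (1.73 ± 0.24, adjusted p = 0.0027) and 102 ± 23.5 CPM with FGF10 and 28.05 ± 8.57 CPM with BSA at 72 h (1.87 ± 0.24, adjusted p = 0.0012), against 24.1 ± 7.50 CPM at 0 h, and kept both calls in all alternatives. The lower one was Srgn, the proteoglycan of blood cell granules, at 0.478 ± 0.206 CPM with FGF10 and 2.97 ± 1.52 CPM with BSA at 72 h (-2.61 ± 0.61, adjusted p = 0.0247). The leukocyte markers, given above, were lower there too, and their part was not tested. Cd44, a hyaluronan receptor with heparan sulfate bearing variants, averaged 132 ± 20.2 CPM with FGF10 at 36 h, 125 ± 10 with FGF10 at 72 h, 126 ± 40.9 with BSA at 36 h and 128 ± 11.51 with BSA at 72 h, against 25.5 ± 4.34 CPM at 0 h (SD, n = 3 each). It rose in all 4 comparisons with 0 h, by 2.28 to 2.37 on the log2 scale (largest adjusted p = 2.7e-06). Gpc6, a glypican, rose between 36 h and 72 h beside both beads, at 25.6 ± 3.83 CPM at 72 h against 14.2 ± 2.36 CPM at 36 h with FGF10 (0.85 ± 0.19, adjusted p = 0.0286) and at 37.3 ± 2.50 against 18.7 ± 0.483 CPM with BSA (1.00 ± 0.18, adjusted p = 0.0313), calls that were lost in 7 and 9 of 23 alternatives. Against 0 h, 3, 3, 2 and 1 of the 13 were higher and 5, 3, 4 and 3 lower with FGF10 at 36 h, FGF10 at 72 h, BSA at 36 h and BSA at 72 h. In the same order, 39.8%, 29.9%, 27.1% and 25.2% of all tested genes were called against 0 h. Between beads 2.34% were called at 36 h and 5.99% at 72 h.

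Of 29 tested genes that build or edit heparan sulfate, edgeR called 0 between beads at 36 h, where 7 had an unadjusted p under 0.05, voom called 3 and DESeq2 called 1. At 72 h it called 1 higher and 1 lower. Ext1, a polymerase of the heparan sulfate chain, averaged 37.8 ± 5.12 CPM with FGF10 and 25.8 ± 1.89 CPM with BSA at 72 h (0.55 ± 0.14, adjusted p = 0.0305). Hs3st1, a sulfotransferase that acts late on the chain, averaged 22.9 ± 3.82 CPM with FGF10 and 42.7 ± 4.07 CPM with BSA (-0.90 ± 0.21, adjusted p = 0.0239). With BSA, Hs3st1 was higher at 72 h than at 36 h, where it averaged 15.4 ± 1.33 CPM (1.47 ± 0.21, adjusted p = 0.0225), a call lost in 6 of 23 alternatives, with an adjusted p of up to 0.117. They were the sum of 2_1 and 2_2 and the fits without each BSA 72 h library or without BSA 36 h replicate 2 or 3. At 72 h the Srgn and Ext1 calls were lost in 7 and the Hs3st1 call in 6 of 23 alternatives, with an adjusted p of up to 0.141, 0.127 and 0.140. Against 0 h, 4, 9, 3 and 5 of the 29 were higher and 8, 7, 4 and 2 lower in the same order of groups. The shares of all tested genes called are those given with the list before.

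Of 26 tested genes for FGF receptor adaptors and trafficking, 1 was higher with FGF10 at 36 h and 0 were called at 72 h by edgeR, where 1 had an unadjusted p under 0.05, voom called 3 and DESeq2 called 0. At 36 h voom called 4 and DESeq2 called 1. The gene called by edgeR was Flrt3, a membrane protein that binds FGF receptors. It averaged 18.1 ± 1.18 CPM with FGF10 and 8.23 ± 0.700 CPM with BSA at 36 h (1.13 ± 0.18, adjusted p = 0.0056), and 13.5 ± 1.28 CPM with FGF10 and 11.1 ± 1.07 CPM with BSA at 72 h (0.29 ± 0.18, adjusted p = 0.351), against 25.7 ± 7.08 CPM at 0 h. Against 0 h, Flrt3 had log2 differences of -0.51 and -0.93 with FGF10 at 36 h and 72 h and of -1.64 and -1.21 with BSA, and it fell in all 4 (largest adjusted p = 0.0307). The change of its bead difference between times was not called (-0.85 ± 0.25, adjusted p = 0.753). Against 0 h, 3, 3, 1 and 2 of the 26 were higher and 6, 3, 3 and 5 lower in that order of groups, beside 39.8%, 29.9%, 27.1% and 25.2% of all tested genes called.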

How the data were processed

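RNA was sequenced from 15 libraries in 5 groups of 3. The authors deposited 1 table of counts per gene, made with featureCounts 2.0.1 on exons joined by gene name, per the file headers. The header names no strand option and no option to count fragments that match several places or genes, although the kit keeps strand per the labels' protocols. The submitters' processing notes name FastQC, cutadapt 1.9.1, HISAT2 2.2.1, HTSeq, DESeq2 and GRCm39; where HTSeq and featureCounts differ the header was followed.

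Counts were tested with edgeR 4.0.16 in R 4.3.3, in 1 robust quasi-likelihood fit of the 5 groups with TMM scaling. Genes passed filterByExpr (minimum count 10, minimum total 15), which kept 18140 and removed 36316, and p-values were adjusted by Benjamini-Hochberg over the genes kept in each of 9 contrasts. Levels per kb divide CPM by the exon length in the deposited table. Libraries held 11965322 to 24261233 counts, which limits the precision of low genes such as Fgfr4. Alternatives were DESeq2 1.42.0 (its size factors, and its Wald test), limma 3.58.1 voom with sample weights, other filters, a replicate block, summing 2_1 and 2_2, fitting only the groups compared, and leaving out each library. The fit was tested on simulated data. Alternative Fgfr2 lengths were added after seeing the data.

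The members, gene lists and tests were chosen with earlier results of these data known. Named genes are the 8 members, list genes called between beads, the 3 list genes with the smallest adjusted p in each other contrast, and the 3 genes most alike to each tested member among genes averaging 5 CPM or more in some group. Some of these most alike genes are not reported here. Promoter windows are RefSeq's on GRCm38.p6 and were not joined to the GRCm39 coordinates of the counts.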

Additional observations from a re-analysis of the deposited data

How the results depend on the processing

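Over 63 results of the 7 tested members and 23 alternatives, 1356 of 1449 checks kept direction and side of the threshold, 49 gained a call, 24 lost one and 20 changed sign, all 20 in results without a call. Sdc1 between beads at both times and with FGF10 against 0 h, Fgfr2 and Fgfbp1 against 0 h in all 4 groups, and Fgfr1 with FGF10 at 36 h against 0 h kept their calls in all 23. The count of members called between beads at 36 h, 1, became 2 with no filter, voom or DESeq2 and ran from 1 to 2 when 1 library was left out. At 72 h, 2 became 1 with 2_1 and 2_2 summed and 3 with voom or only the groups compared, and ran from 1 to 2 when 1 library was left out. Against 0 h, 3 became 5 with FGF10 at 72 h under the replicate block or voom (3 to 6 with 1 library left out), and 3 became 6 with BSA at 36 h under voom (2 to 5). Over all tested genes, the calls with FGF10 at 72 h rose as well, from 5417 to 5994 under the block and 6845 under voom. Those with BSA at 36 h rose from 4916 to 6317 under voom. From 36 h to 72 h, 1 became 0 with FGF10 in the fit of only the groups compared (0 to 1), and 0 became 1 with BSA with no filter or the replicate block, and 2 with only the groups compared, voom or DESeq2 (0 to 2). The cause of these shifts was not tested. Of 21 correlations of deviations between same-numbered libraries, -0.158 to 0.449, 9 were over 0.1, against 10 of 69 between other libraries. Not every same-numbered pair was over 0.1, not every library correlated best with its own number, and the labels do not say what a number marks, so the block stayed an alternative. All 9 lay outside BSA 72 h, and both pairs of FGF10 36 h and BSA 36 h were among them (0.449 and 0.286). Outside BSA 72 h every same-numbered pair of replicates 1, 2 or 3 was over 0.1. The same-numbered pairs under 0.1 there were those of number 4, at -0.158 to 0.017. Under the replicate block Fgfr3 was called lower than at 0 h with FGF10 at 72 h (-1.18, adjusted p = 0.0097), BSA at 36 h (-1.08, 0.0177) and BSA at 72 h (-1.56, 0.0037), as was Fgfr1 with FGF10 at 72 h (-0.50, 0.0166), and Fgfbp1 was called lower with BSA at 72 h than at 36 h (-1.46, 0.0253). The block turned Fgfr1 with BSA at 72 h against 0 h to -0.094 and the Fgfr3 change between times to 0.023. Leaving out 1 library turned these uncalled log2 differences: between beads at 36 h, Fgfr2 (-0.043 to 0.30), Fgfr3 (-0.31 to 0.57) and Sdc4 (-0.016 to 0.41); at 72 h, Fgfrl1 (-0.0066 to 0.13); with BSA at 72 h against 0 h, Fgfr1 (-0.042 to 0.31); from 36 h to 72 h, Sdc1 (-0.13 to 0.30) and Fgfr3 (-0.50 to 0.32) with FGF10 and Fgfr3 (-0.39 to 0.12) with BSA; in the change between times, Fgfr3 (-0.36 to 0.52), Sdc1 (-0.016 to 0.41) and Sdc4 (-0.35 to 0.080). Over all genes, calls between beads numbered 425 at 36 h (78 to 1460 over the alternatives that kept all libraries, 127 to 852 with 1 left out) and 1087 at 72 h (277 to 5025, 148 to 1950). Against 0 h they numbered 7225 with FGF10 at 36 h (3847 to 7609), 5417 with FGF10 at 72 h (4984 to 6845), 4916 with BSA at 36 h (3541 to 6317) and 4568 with BSA at 72 h (3362 to 6036). They numbered 346 from 36 h to 72 h with FGF10 (161 to 862, 99 to 434), 85 with BSA (0 to 2683, 0 to 569) and 0 for the change between times (0 to 18). Without length, the order of levels moved in all 5 groups. With 3 libraries a group and low counts, Fgfr3 and Fgfr4 allow no firm statement.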
